A study of Mus musculus with 6 samples.

Results

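The genes described here encode respiratory complexes I and II and the factors that assemble complex I in mouse. They were chosen by symbol: every array probe whose platform gene symbol begins with Nduf, or is Sdha, Sdhb, Sdhc or Sdhd. This gave 75 of 45281 probes, for 48 of the 19057 gene symbols on the array. By role, 53 probes (34 genes) belong to complex I subunits, 7 probes (4 genes) to complex II subunits and 13 probes (8 genes) to assembly factors. Probes of Ndufa4, now counted as a subunit of complex IV, and of the pseudogene Ndufs5-ps were kept apart.

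RNA came from the ventromedial hypothalamus of mice aged 16 weeks on a mixed genetic background. The SIRT1 deletion group, 3 RNA pools, had the genotype Sf1-Cre; Sirt1loxP/loxP, in which Cre under Sf1 control recombines the floxed Sirt1 alleles in neurons that express SF1. The control group, 3 RNA pools, had Sirt1loxP/loxP without Cre, so both groups carry the floxed alleles and only the deletion group carries Cre. The tissue also holds cells without SF1, a difference limited to SF1 neurons is diluted in it, and the labels do not give the number of mice per pool. Each pool was hybridised to 1 Illumina bead array, and p-values therefore measure the spread between these pools. In bulk tissue, fewer cells of a type and less RNA per cell cannot be told apart.

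Complex I takes electrons from NADH to ubiquinone and pumps protons across the inner mitochondrial membrane. Its peripheral arm holds the N module, where NADH is oxidised, and the Q module, where ubiquinone is reduced, and its membrane arm holds the proton pumps. Complex II, succinate dehydrogenase, feeds electrons from succinate to the same ubiquinone pool without pumping protons, and is also an enzyme of the citric acid cycle. SIRT1, a NAD-dependent deacetylase, acts on PGC-1alpha, a coactivator of nuclear genes for mitochondrial proteins, and neurons depend on respiration for most of their ATP.

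Promoter sequence, which the choice by symbol did not use, was searched for motifs of factors known at respiratory genes. Of the 48 genes, 42 had at least 1 promoter window (250 bases before to 50 after the start) in RefSeq for GRCm38.p6, 44 windows in all. The consensus motif of NRF1, read on both strands as all motifs here, lay in 11 of the 44 windows, against 9.25% of windows of all genes with a tested probe and 4.6% of all 32851 windows. These windows belong to 10 genes, since both windows of Ndufa5 hold the same site. NRF1 is a transcription factor known for activating nuclear genes of the respiratory chain. The YY1 motif AAGATGGCG lay in 13.6%, against 2.73% and 1.4%, in each case at least in part after the start. The ETS motif CCGGAAG, bound by GABP, lay in 18.2%, against 15.8% and 8.86%, and the GC box GGGCGG in 54.5%, against 60.7% and 35.7%. The ERR motif TCAAGGTCA lay in 1 window, that of Sdhd, not wholly before the start. A match to letters shows no binding.

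The 250 bases upstream of 3 genes are shown because they differ in these motifs, with NRF1 and ETS motifs in capitals. Ndufb4 (chr16:37654369-37654618, minus strand) has the NRF1 motif at 3 places, none overlapping another. Sdhd (chr9:50603850-50604099, minus strand) has 1 NRF1 motif and, nearer the start, 1 ETS motif on the other strand. Ndufb10 (chr17:24724424-24724673, minus strand), which had the probe with the lowest p of all members, has none of the 5 motifs. Sequences are RefSeq GRCm38.p6, 5′ to 3′ on the gene's strand.
Ndufb4: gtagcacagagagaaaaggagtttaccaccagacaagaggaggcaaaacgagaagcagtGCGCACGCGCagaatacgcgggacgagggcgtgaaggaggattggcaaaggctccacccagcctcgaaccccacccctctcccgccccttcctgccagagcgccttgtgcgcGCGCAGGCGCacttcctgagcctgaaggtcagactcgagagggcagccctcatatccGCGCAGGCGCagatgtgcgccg
Sdhd: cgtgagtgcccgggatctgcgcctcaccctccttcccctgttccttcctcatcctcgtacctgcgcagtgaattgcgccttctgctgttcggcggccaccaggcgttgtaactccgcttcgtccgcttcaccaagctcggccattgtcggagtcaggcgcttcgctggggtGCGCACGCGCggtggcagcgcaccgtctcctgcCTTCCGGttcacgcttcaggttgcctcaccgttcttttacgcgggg
Ndufb10: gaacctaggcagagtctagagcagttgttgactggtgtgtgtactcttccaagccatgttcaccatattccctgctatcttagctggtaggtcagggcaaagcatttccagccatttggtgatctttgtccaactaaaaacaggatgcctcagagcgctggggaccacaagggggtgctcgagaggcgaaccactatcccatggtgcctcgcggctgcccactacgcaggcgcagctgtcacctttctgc

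Between 20053 and 20611 probes per array were detected (detection p under 0.05), and array correlations lay between 0.989 and 0.995. Before normalisation the median signal was 140.4, 141.0 and 142.1 in SIRT1 deletion pools, against 149.4, 147.7 and 145.5 in control pools. The groups did not overlap in it, and its part in the values below was not tested. The first principal component (34.1% of variance) placed SIRT1 deletion 2 and 3 on one side and SIRT1 deletion 1 with the controls on the other. Values are log2 intensities after background correction and quantile normalisation, and a difference is SIRT1 deletion minus control. Markers of the ventromedial nucleus were present: 9 of 10 listed genes had a tested probe, and Fezf1 averaged 11.80 ± 0.12 in SIRT1 deletion pools and 11.89 ± 0.011 in control pools (SD, n = 3 each). Of the 14 tested marker probes 11 were lower (median -0.13) and none passed the test at a limma adjusted p under 0.05. Nr5a1, which encodes SF1, had 5.30, 5.72 and 5.46 in deletion pools, against 5.11, 4.90 and 5.13 in control pools (0.45). The lowest detected value of an array was 4.86 to 4.90. The other Nr5a1 probe was detected in 1 deletion pool and 0 control pools and was not tested. Sox14, a transcription factor, had 8.33, 8.18 and 8.37 in deletion pools, against 8.58, 8.78 and 8.61 in control pools (-0.36). Groups did not overlap for Sox14 or the tested Nr5a1 probe, as for 7.15% of all tested probes with higher and 6.84% with lower values. The part of these markers in the values below was not tested. The Sirt1 probe did not check the deletion, with 7.65 ± 0.13 in SIRT1 deletion pools and 7.69 ± 0.11 in control pools, a difference of -0.034 (limma adjusted p = 0.943). Where this probe lies relative to the loxP sites was not known. Of the exocrine pancreas list, all 9 tested probes (8 genes) were lower in deletion pools, 3 of them at a limma adjusted p under 0.05. This list was named after earlier results of these data, so its direction is not an independent result. The 3 probes, of Zg16, Try4 and Try5, were detected in all 3 control pools and in 0 deletion pools. They thus entered the test through the control pools alone. The summed intensity of its genes was 262 to 456 in SIRT1 deletion pools and 919 to 1067 in control pools. Its part in the values below was not tested.

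No complex I or II gene passed the test between the groups. Of the 75 probes 62 were tested, all of them above background on all 6 arrays, and 0 of the 62 reached a limma adjusted p under 0.05, where 0.049% of all 20402 tested probes did. The lowest adjusted p among them was 0.536. At an unadjusted p under 0.05, 0 of the 62 were higher, where 4.49% of all tested probes were, and 3 were lower, which is 4.84% of the 62 against a background of 3.98%. These 3 were a probe of Ndufb10, a probe of Ndufb6 and the probe of Ndufaf2. With other processing the count of lower members was 15 (24.2%) with median scaling, where 18.2% of all tested probes were lower at that level, and 7 (11.3%) with the authors' table, where 4.72% were. Without control 2 none of the 62 was lower at that level, where 2.57% of all tested probes were, and 1 was higher, where 2.79% were. Without SIRT1 deletion 3 only 1 was lower (1.61%), where 3.25% of all tested probes were. Without SIRT1 deletion 2 or control 1 a single probe was higher in each case, where 2.89% and 5.11% of all tested probes were.

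In the main processing the differences were small and the intervals narrow. Over the 47 tested complex I subunit probes the median log2 fold change was -0.018, with 28 lower and 19 higher and a range from -0.56 to 0.21. The median over all tested probes was -0.0030. The median turned positive without SIRT1 deletion 2 (0.030) and without control 3 (0.011). Signs near 0 also depended on the scaling. With each array scaled to its median in place of quantile normalisation, the median of all tested probes was -0.12 and that of complex I subunits -0.18, and 3 complex I subunit probes were higher and 44 lower. This scaling shifted differences down, by amounts that varied between probes: Ndufs3 went from 0.097 to -0.075 and Ndufb4 from 0.12 to 0.024. A sign that turns under it can come from such a shift alone. Differences with median scaling are therefore also given relative to the median of all probes, and 13 complex I subunit probes were above it and 34 below. That median takes out a common shift only, so positions relative to it still hold the part that varied between probes. In the main processing the 95% interval excluded a 1.5-fold change in either direction for 46 of the 47 probes. It excluded a 1.2-fold change for 18 of them. Intervals with median scaling, where differences were shifted down, were not compared with these bounds. The median SD between pools within a group was 0.0916 for these probes, against 0.137 for all tested probes.

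**Figure D1:**
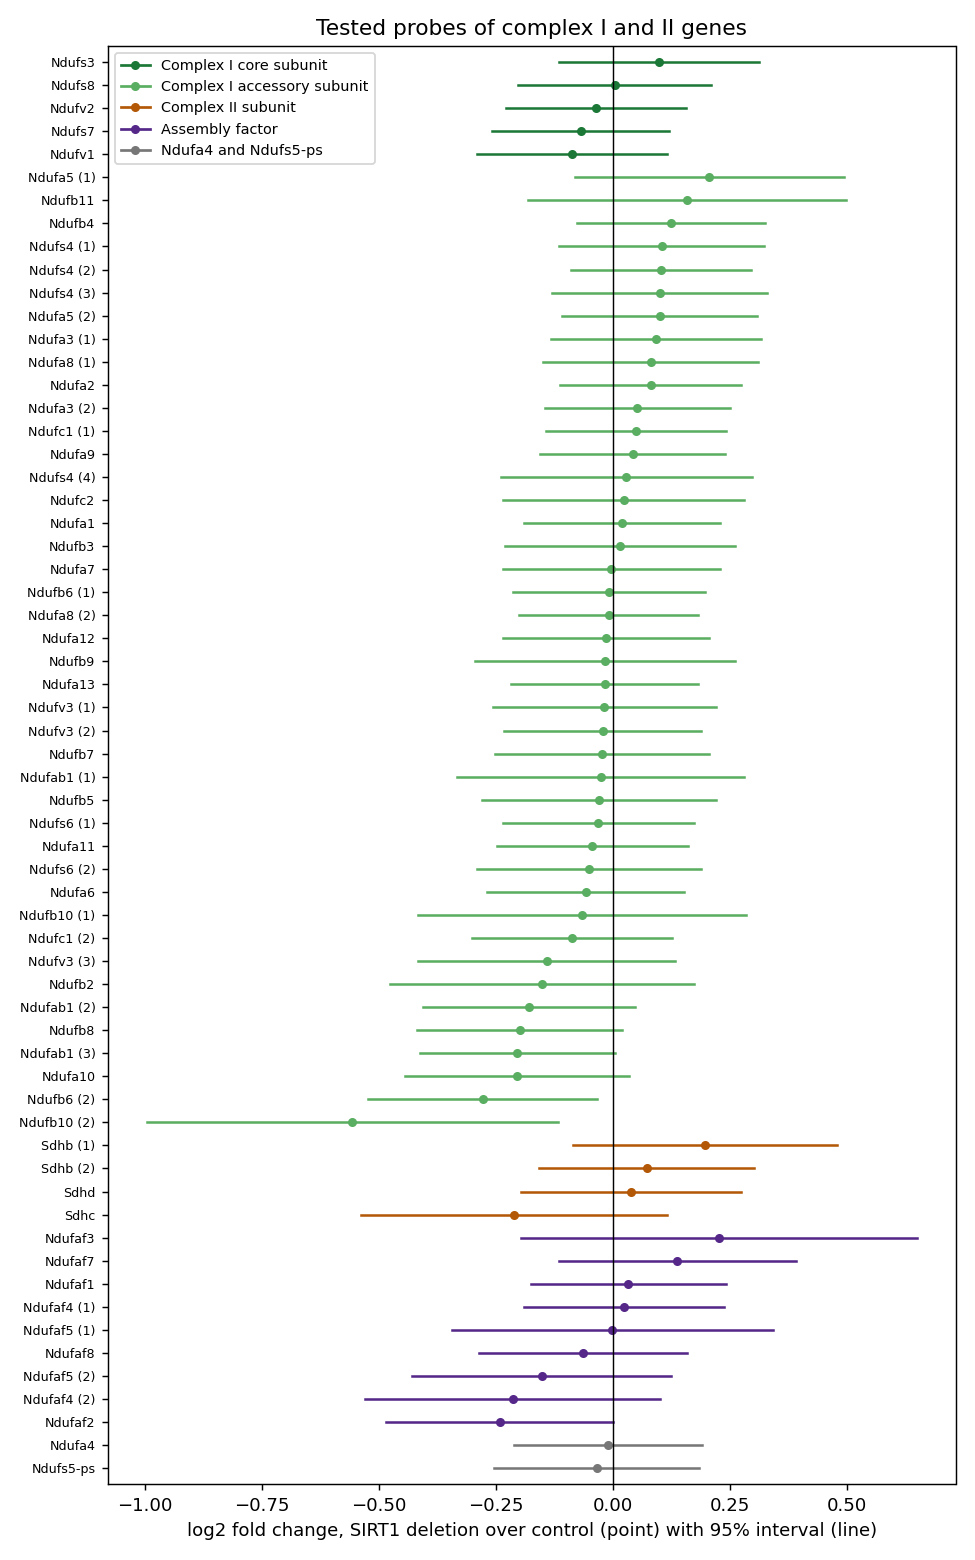
Log2 fold change, SIRT1 deletion over control, of each of the 62 tested probes (points) with its 95% limma interval (lines), coloured by role, with numbers in brackets for probes of 1 gene. The intervals of 1 Ndufb10 probe, 1 Ndufb6 probe and the Ndufaf2 probe lie below 0, and the other 59 cross it.

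Among the core subunits, which carry the flavin, the iron-sulphur clusters and the ubiquinone site, 5 of 6 probes were tested, 3 of them lower and 2 higher (median -0.037), and all 5 were lower with median scaling, where Ndufs3 lay above the median of all probes and the other 4 below it. Ndufv1, which binds NADH and FMN, had 12.10, 11.95 and 11.99 in SIRT1 deletion pools, against 12.06, 12.15 and 12.09 in control pools. The groups overlapped, and the log2 fold change was -0.088 (95% interval -0.29 to 0.12, limma adjusted p = 0.795). Its partner Ndufv2, which carries an iron-sulphur cluster, had 12.17, 12.10 and 12.12 in deletion pools, against 12.18, 12.13 and 12.19 in control pools (-0.037, interval -0.23 to 0.16). In both subunits of the NADH site, SIRT1 deletion 1 lay inside the range of the control pools.

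In the Q module, Ndufs7, which carries the last iron-sulphur cluster before ubiquinone, had 11.98, 11.98 and 12.02 in SIRT1 deletion pools, against 12.04, 12.07 and 12.07 in control pools. All deletion pools were lower than all control pools, by -0.069 on average (interval -0.26 to 0.12, limma adjusted p = 0.827), and such separation with lower values occurred in 6.84% of all tested probes. Ndufs3, a structural core subunit, had 11.02, 11.15 and 11.25 in deletion pools, against 11.04, 11.07 and 11.01 in control pools (0.097, interval -0.12 to 0.31). With median scaling Ndufs3 had -0.075, which is 0.047 above the median of all probes, and Ndufs8 -0.18, which is -0.062 relative to it. Ndufs8, another iron-sulphur subunit, had 11.53, 11.36 and 11.43 in deletion pools, against 11.45, 11.39 and 11.46 in control pools (0.0031, interval -0.20 to 0.21). In Ndufs3 and Ndufs8 the groups overlapped. The probe for Ndufs1, the largest iron-sulphur subunit of the N module, was not above background on any array.

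The accessory subunits, which surround the core and stabilise it, held the lowest p of all members. Ndufb10, in the distal membrane arm, had 7.60, 8.05 and 8.22 at probe ILMN_2691261 in SIRT1 deletion pools, against 8.29, 8.87 and 8.37 in control pools. All deletion pools lay below all control pools, with SIRT1 deletion 1 lowest and control 2 highest. The mean was 7.96 ± 0.32 in deletion pools and 8.51 ± 0.31 in control pools (SD, n = 3 each), and the log2 fold change was -0.56 (95% interval -1.0 to -0.12, limma adjusted p = 0.536). The second Ndufb10 probe, ILMN_2900216, did not show this: it had 8.18, 8.09 and 8.50 in deletion pools, against 8.61, 8.21 and 8.14 in control pools. There the groups overlapped and the log2 fold change was -0.066 (interval -0.42 to 0.28).

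Ndufb6, also of the distal arm, showed the same split between probes. ILMN_2914507 had 6.87, 7.08 and 6.98 in SIRT1 deletion pools, against 7.11, 7.39 and 7.27 in control pools, with no overlap. Its difference was -0.28 on the log2 scale (95% interval -0.52 to -0.034, limma adjusted p = 0.561). ILMN_1242233 had 12.50, 12.46 and 12.52 in deletion pools, against 12.41, 12.51 and 12.59 in control pools, a log2 fold change of -0.0086. Ndufb8, a distal arm subunit often used as a marker of assembled complex I, had 12.92, 12.80 and 12.87 in deletion pools, against 12.94, 13.17 and 13.07 in control pools. Its deletion pools were all lower than its control pools, by -0.20 on average (interval -0.42 to 0.019, limma adjusted p = 0.6). The 12 tested distal arm probes, counted without Ndufab1, had a median log2 fold change of -0.027, and 9 were lower. The 2 named first were lower at an unadjusted p under 0.05, as were 3.98% of all tested probes.

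Ndufab1, the mitochondrial acyl carrier protein, sits in complex I and also serves lipoic acid synthesis. Its probe ILMN_1247777 had 12.36, 12.21 and 12.24 in SIRT1 deletion pools, against 12.46, 12.55 and 12.42 in control pools (log2 fold change -0.20, interval -0.41 to 0.0032, limma adjusted p = 0.593). Its probe ILMN_2551227 had 11.15, 11.21 and 11.22 in deletion pools, against 11.33, 11.52 and 11.26 in control pools (-0.18, interval -0.40 to 0.047). In both, every deletion pool was lower than every control pool. The third tested probe, ILMN_1246069, had 11.26, 11.00 and 11.50 in deletion pools, against 11.15, 11.31 and 11.37 in control pools, and overlapped (-0.026). The probe annotated with the RefSeq transcript of Ndufab1, ILMN_2732281, was not above background on any array, while the 3 tested probes are annotated with cDNA clones.

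**Figure D2:**
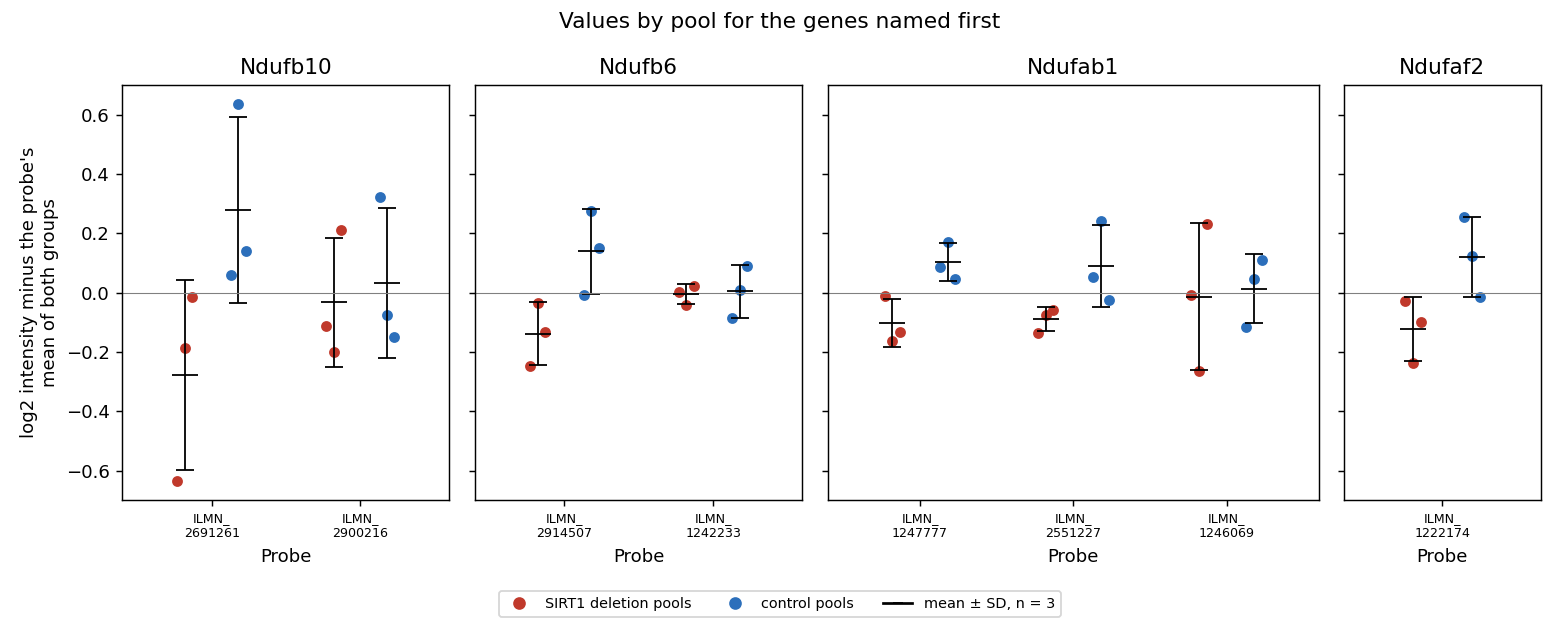
Log2 intensity of each pool minus the probe's mean of both groups, for the tested probes of Ndufb10, Ndufb6, Ndufab1 and Ndufaf2. Points are pools, SIRT1 deletion left of control, and bars are mean ± SD (n = 3). At 1 probe of Ndufb10, 1 of Ndufb6, 2 of Ndufab1 and the probe of Ndufaf2, all deletion pools lie below all control pools, and at the other probes of these genes they overlap.

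Ndufa10, a subunit of the proximal membrane arm, had 11.53, 11.31 and 11.49 in SIRT1 deletion pools, against 11.51, 11.74 and 11.68 in control pools. The groups overlapped through SIRT1 deletion 1 and control 1, and the log2 fold change was -0.21 (interval -0.44 to 0.034, limma adjusted p = 0.61). The remaining 10 tested proximal arm probes, among them Ndufa1, Ndufa13 and Ndufc2, lay between -0.088 and 0.091. The median of all 11 was 0.019.

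The accessory probes with the lowest p among those that were higher belonged to Ndufa5, Ndufb4 and Ndufs4. Ndufa5, of the Q module, had 7.02, 7.06 and 7.13 at ILMN_2691460 in SIRT1 deletion pools, against 7.14, 6.73 and 6.73 in control pools (log2 fold change 0.21, interval -0.081 to 0.49, limma adjusted p = 0.665). The value of control 1 exceeded every deletion pool there. At its other probe, ILMN_1216007, it had 12.32, 12.37 and 12.30 in deletion pools, against 12.28, 12.12 and 12.29 in control pools. All deletion pools were higher there (0.099), and with median scaling the difference was -0.069, which is 0.053 above the median of all probes. Ndufb4, of the distal arm, had 6.15, 6.11 and 6.08 in deletion pools, against 5.98, 5.92 and 6.07 in control pools, again without overlap (0.12, interval -0.076 to 0.32, limma adjusted p = 0.703).

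Ndufs4, a subunit of the N module whose loss in mice causes a Leigh-like encephalopathy, has 4 tested probes, and all 4 were higher, between 0.028 and 0.10. ILMN_2900025 had 10.04, 10.04 and 10.06 in SIRT1 deletion pools, against 9.9996, 9.90 and 9.95 in control pools, without overlap (limma adjusted p = 0.739). ILMN_1234521 had 11.77, 11.67 and 11.68 in deletion pools, against 11.69, 11.47 and 11.65 in control pools, with overlap (limma adjusted p = 0.768). With median scaling they had -0.068 and -0.065, which are 0.055 and 0.057 above the median of all probes. Probes of 1 gene share their RNA and are not independent. Over all 62 members, groups did not overlap in 4 probes that were higher, which is 6.45% against a background of 7.15%, and in 7 that were lower, 11.3% against a background of 6.84%. The 4 were these probes of Ndufb4, Ndufs4 and Ndufa5 and the probe of Ndufa2 (0.080), an accessory subunit of the N module. With median scaling Ndufa2 had -0.092, and all 4 lay above the median of all probes, Ndufa2 by 0.030 and Ndufb4 by 0.15. The 7 were 1 probe each of Ndufs7, Ndufb6, Ndufb8, Ndufb10 and Ndufaf2 and 2 of Ndufab1, and none passed the test. An exact two-sided permutation test of a single probe cannot give a p under 0.1 with 3 against 3 pools, and that is its value for each of them.

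By module, the N module had 5 tested probes higher and 8 lower (median -0.019) and the Q module 5 higher and 3 lower (0.022). The proximal arm had 6 higher and 5 lower (0.019) and the distal arm 3 higher and 9 lower (-0.027). Ndufab1, which sits in both the Q module and the distal arm, is left out of all module counts here. Its 3 tested probes were all lower (median -0.18), and with median scaling they had -0.20, -0.38 and -0.35. With median scaling all 13 N module and all 11 proximal arm probes were lower, the Q module had 1 higher and 7 lower and the distal arm 2 higher and 10 lower. Relative to the median of all probes under that scaling, 5 N module probes were above and 8 below, 4 and 4 in the Q module, 2 and 9 in the proximal arm and 2 and 10 in the distal arm. No module had a probe past the adjusted threshold. The median log2 fold change was -0.0055 over the 14 tested probes of genes with the NRF1 motif and -0.013 over the 44 of genes without it. The tested probes of Ndufa4 (-0.011) and of the pseudogene Ndufs5-ps (-0.035) had similar small values, and the groups overlapped in both.

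How far probes of 1 gene differed was measured in the 13 genes with several tested probes. In 3 of them, Ndufa8, Ndufc1 and Ndufaf4, the probes had opposite signs, and in 1 of these, Ndufaf4, a probe exceeded 0.2 in size. The widest gap was that of Ndufb10 (0.49), then Ndufb6 (0.27) and Ndufaf4 (0.24), and the narrowest that of Ndufs6 (0.020). Counting genes by all their tested probes, 12 complex I subunit genes were higher throughout, 19 lower throughout and 2 mixed. Ndufb10 and Ndufb6 each had 1 probe at an unadjusted p under 0.05, and in neither did the second probe reach it.

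**Figure D3:**
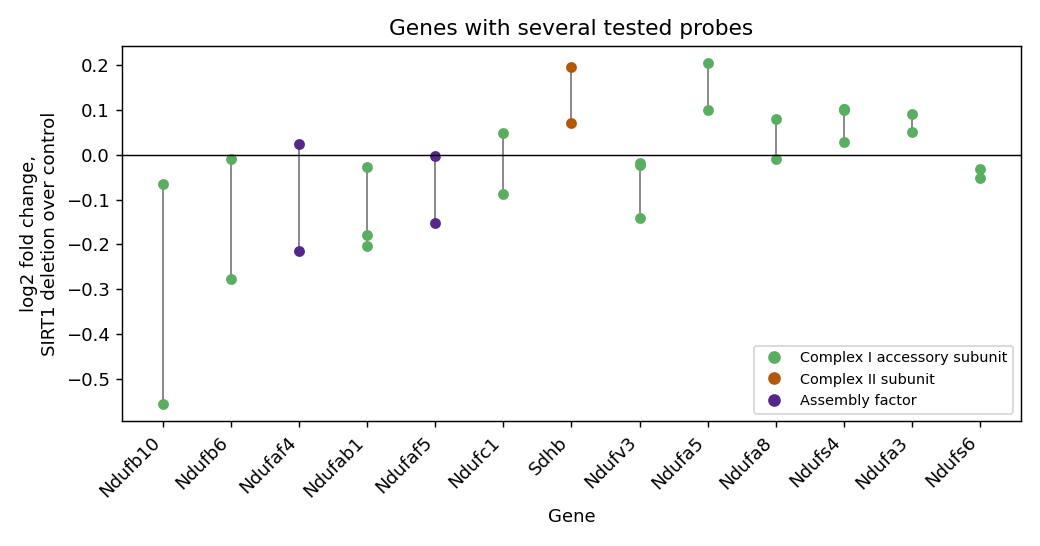
Log2 fold change, SIRT1 deletion over control, of each tested probe (points) of the 13 genes with more than 1, ordered by the gap between their lowest and highest probe (grey lines). The gap is widest for Ndufb10 (0.49) and narrowest for Ndufs6 (0.020).

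Of complex II, 4 of 7 probes were tested, 3 higher and 1 lower (median 0.055). With median scaling 1 was higher and 3 were lower, and 3 lay above the median of all probes and 1 below it. Sdhb, the iron-sulphur subunit, had 9.995, 9.79 and 10.17 at ILMN_2769064 in SIRT1 deletion pools, against 9.94, 9.66 and 9.77 in control pools (log2 fold change 0.20, interval -0.085 to 0.48, limma adjusted p = 0.672). At ILMN_2769065 it had 10.24, 10.17 and 10.34 in deletion pools, against 10.32, 10.10 and 10.12 in control pools (0.071, interval -0.16 to 0.30), and with median scaling -0.10, which is 0.020 above the median of all probes. Both Sdhb probes overlapped between the groups.

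The membrane anchors of complex II, which bind ubiquinone, had differences of opposite sign. Sdhc had 11.18, 10.66 and 10.97 in SIRT1 deletion pools, against 11.31, 11.04 and 11.08 in control pools (-0.21, interval -0.54 to 0.11, limma adjusted p = 0.689). Sdhd had 6.59, 6.32 and 6.40 in deletion pools, against 6.31, 6.46 and 6.43 in control pools (0.038, interval -0.20 to 0.27), and with median scaling -0.070, which is 0.052 above the median of all probes. In both the groups overlapped, and the lowest Sdhc value was that of SIRT1 deletion 2. The Sdhc difference was -0.072 without SIRT1 deletion 2, -0.13 without control 1 and -0.33 without SIRT1 deletion 1. In the main processing the interval of all 4 tested complex II probes excluded a 1.5-fold change, and intervals with median scaling were not compared with that bound. The probe for Sdha, the flavoprotein that oxidises succinate, was below the detection threshold on all 6 arrays, with log2 values from 4.59 to 4.78. This does not bound the level of the Sdha transcript. Sdhb and Sdhc each also had an undetected probe beside probes of the same gene that were detected on all 6 arrays.

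The assembly factors, which build complex I and are absent from the finished enzyme, had 9 of 13 probes tested, 4 higher and 5 lower (median -0.0020), and 1 higher and 8 lower with median scaling, where 4 lay above the median of all probes and 5 below it. Ndufaf2, which binds a late assembly intermediate, had 8.48, 8.27 and 8.40 in SIRT1 deletion pools, against 8.76, 8.63 and 8.49 in control pools. All deletion pools were lower, if narrowly between SIRT1 deletion 1 and control 3, and the log2 fold change was -0.24 (interval -0.48 to -0.00062, limma adjusted p = 0.588). Ndufaf4, which acts early in assembly, had 8.52, 8.10 and 8.28 at ILMN_2551723 in deletion pools, against 8.38, 8.73 and 8.43 in control pools (-0.21, interval -0.53 to 0.10). Its other probe, ILMN_2734060, had 8.68, 8.86 and 8.71 in deletion pools, against 8.67, 8.71 and 8.80 in control pools (0.023). The groups overlapped at both.

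Ndufaf5, which in human cells modifies NDUFS7 during assembly, had 9.42, 9.06 and 9.16 at ILMN_2747677 in SIRT1 deletion pools, against 9.35, 9.23 and 9.51 in control pools (-0.15), while its other probe gave -0.0020. Ndufaf3 had 6.39, 6.67 and 6.81 in deletion pools, against 6.03, 6.76 and 6.40 in control pools (0.23, interval -0.20 to 0.65). These groups overlapped. In the main processing the Ndufaf3 interval was 1 of the 2 among all members that did not exclude a 1.5-fold change. The other was that of the Ndufb10 probe ILMN_2691261. The Ndufaf3 difference was 0.042 without control 1, 0.13 without SIRT1 deletion 3, 0.34 without SIRT1 deletion 1 and 0.41 without control 2. Ndufaf7, a methyltransferase, had 7.94, 8.08 and 8.14 in deletion pools, against 7.98, 7.73 and 8.04 in control pools (0.14). Ndufaf1, of an early assembly intermediate, had 8.95, 8.84 and 8.85 in deletion pools, against 8.79, 8.81 and 8.95 in control pools (0.032). The groups overlapped in both. With median scaling Ndufaf7 had -0.0018, Ndufaf1 -0.11 and the second Ndufaf4 probe -0.12, which are 0.12, 0.0078 and -0.00078 relative to the median of all probes. Ndufaf8 had a log2 fold change of -0.065. Without SIRT1 deletion 1 the median of the assembly factors was -0.11.

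The 13 probes that were not tested had values near background. Of these, 12 were above background on no array, with log2 values from 4.27 to 4.87, and 1, for Ndufb8, on 1 array of each group. Ndufs1, Sdha and Ndufaf6 had no other probe, so 3 of the 48 genes had no tested probe, and no member passed the filter through 1 group alone.

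The pools of the 2 groups covered overlapping ranges. The median deviation of complex I subunit probes from their mean of both groups was 0.025, -0.043 and 0.017 in SIRT1 deletion 1 to 3, and 0.0017, -0.040 and 0.034 in control 1 to 3. SIRT1 deletion 2 and control 2 were thus the low pools of their groups. SIRT1 deletion 2 held the lowest of the 6 values in 16 of the 47 probes (34.0%), against 19.5% over all tested probes. Control 2 held the lowest in 13 and the highest in 11.

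**Figure D4:**
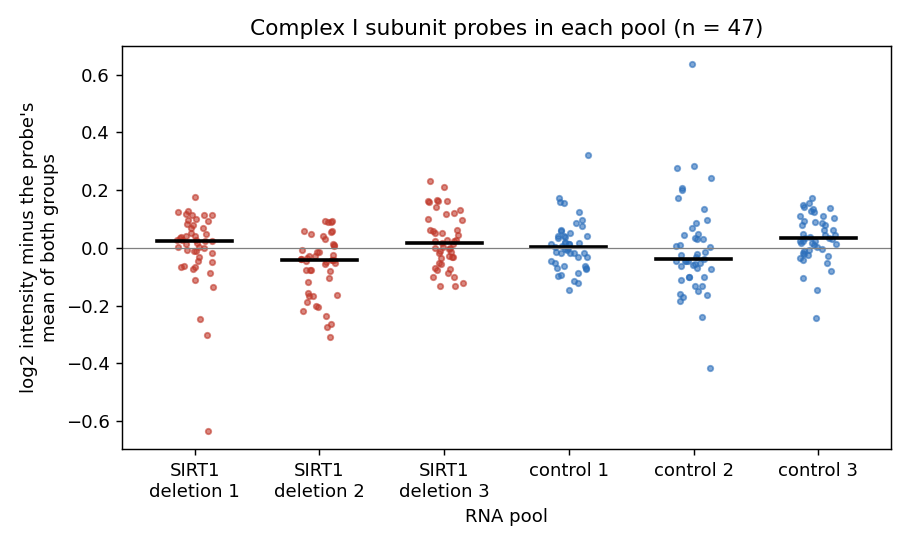
Log2 intensity of each of the 47 tested complex I subunit probes (points) in each pool, minus the probe's mean of both groups. Black lines are medians, which run from -0.043 to 0.025 in SIRT1 deletion pools and from -0.040 to 0.034 in control pools.

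None of the other genes listed beside the 2 complexes passed the test either. Of a list of 39 further assembly factors, ubiquinone synthesis enzymes and enzymes that reduce ubiquinone, 58 probes of 33 genes were tested, 29 higher and 29 lower (median 0.0034), and 0 passed at a limma adjusted p under 0.05. With median scaling 15 were higher and 43 lower (median -0.14), and 26 lay above and 32 below the median of all probes. At an unadjusted p under 0.05, 2 were higher, 3.45% against 4.49% of all tested probes, and 4 lower, 6.9% against 3.98%. Coq2, which joins the ring and the side chain of ubiquinone, had 7.03, 7.06 and 6.96 in SIRT1 deletion pools, against 6.67, 6.67 and 6.80 in control pools (0.30, limma adjusted p = 0.47), but its other probe had -0.10. Lyrm2 (0.30) and Tmem186 (0.19), complex I assembly proteins known from human cells, had the next lowest p among those that were higher, and both kept their sign with median scaling (0.15 and 0.048). In the main processing their other tested probes had 0.16 and 0.20.

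Among the lower ones, Coq3, a methyltransferase of ubiquinone synthesis, had 5.51, 5.53 and 6.47 in SIRT1 deletion pools, against 6.66, 6.47 and 6.44 in control pools (-0.69, limma adjusted p = 0.535), with overlap through SIRT1 deletion 3. The other Coq3 probe had -0.29. Coq5, another methyltransferase of the pathway, had -0.25, with -0.20 and -0.099 at its other probes. Gpd2, the mitochondrial glycerol-3-phosphate dehydrogenase, had -0.29, with -0.087 at another probe. The complex I subunits encoded by mitochondrial DNA are not analysed here.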

How the data were processed

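Trizol-extracted RNA, cleaned on a column with DNase I, was turned into biotinylated cRNA for Illumina arrays, per the labels' protocols. For every probe and pool the deposited table gives a bead intensity on a linear scale, not normalised, and a detection p-value, per the file headers. The authors' normalised intensity table, whose 6 columns share the same quantiles, was used as an alternative. The sources used here name no scanner software or genome build.

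The neqc function of limma 3.58.1 (R 4.3.3) subtracted background by normexp from the detection p-values, added an offset of 16, which compresses changes of dim probes, and made log2 values by quantile normalisation. The 20402 probes detected (p under 0.05) on 3 or more arrays were each tested as a feature, with lmFit and eBayes and Benjamini-Hochberg adjustment over all of them. Intervals are 95% limma intervals. The number of arrays limits the precision. Symbols came from the platform annotation, and all 48 member genes were matched by gene ID to RefSeq (GRCm38.p6). The subunits were sorted by role by hand.

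The members and lists were chosen with earlier results of these data known. Named were the core subunits, complex II, the accessory and assembly probes of lowest p in each direction, probes at an unadjusted p under 0.05, genes whose probes had opposite signs with 1 over 0.2 in size, and the pathway probes of lowest p. Further examples, among them Ndufa2, were picked with their values in view. The steps were tested on simulated data. Python 3.11.15 with matplotlib 3.10.9 drew the figures.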

Additional observations from a re-analysis of the deposited data

How the results depend on the processing

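In all 19 alternatives 0 member probes passed, and the lowest adjusted p of a member was 0.194, with median scaling. Members lower at an unadjusted p under 0.05 (3 in the main processing) numbered 15 with median scaling, where 18.2% of all tested probes were lower at that level, 7 without background correction, with the authors' table, without a filter or with an intensity trend and robust prior (3.46% to 4.72% of all probes), 6 with an offset of 50 (4.38%), and 0 to 4 with 1 pool left out (2.57% to 6.63%). Median scaling moved the median of all tested probes to -0.12 and those of complex I subunits, assembly factors and complex II to -0.18, -0.12 and -0.086. With 1 pool left out these 3 medians ranged from -0.030 to 0.030, from -0.11 to -0.0025 and from 0.018 to 0.10.

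Among the named probes, median scaling turned Ndufs3 (-0.075), Ndufs8 (-0.18), Sdhb (-0.10), Sdhd (-0.070), Ndufs4 (-0.068 and -0.065), Ndufa5 (-0.069), Ndufaf7 (-0.0018), Ndufaf1 (-0.11) and Ndufaf4 (-0.12) negative. Of these only Ndufs8 and Ndufaf4 also lay below the median of all probes under that scaling, and the others lay above it. What turned the signs was not tested. Ndufs8 also turned with array weights (-0.012). With 1 pool left out, Ndufs8 ranged from -0.044 (without SIRT1 deletion 1) to 0.044, negative also without control 2 (-0.020). Sdhd ranged from -0.038 (without SIRT1 deletion 1) to 0.099, negative also without control 1 (-0.0070). Ndufaf1 ranged from -0.0023 (without SIRT1 deletion 1) to 0.081, and Ndufaf4 from -0.033 (without SIRT1 deletion 2) to 0.059, negative also without control 1 (-0.0038). The probes named for lower values kept their sign in every alternative that tested them. Over all probes 10 passed, against 29 with the trend and robust prior, 19 with median scaling, 17 at a threshold of 0.10, 16 with an offset of 50 or without detection p-values in the background step, and 2 where detection on all 6 arrays was required. With the replicate block 0 members passed and 2 were lower at an unadjusted p under 0.05. Pools of the same number did not deviate together (correlations -0.078, -0.057 and -0.040). The labels do not say whether the numbers pair the samples. These correlations cannot decide it, since paired pools need not deviate together. The planned chip block could not be run, since no chip is named in the columns.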
